A study of Mus musculus with 3 samples.

Results

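The genes of integrins and of the focal adhesion, the structure that ties integrins to actin, were examined in wounded mouse fibroblasts. The 35 genes were chosen by name, as 12 integrin alpha subunits, 7 beta subunits and 16 adhesion components, out of 43472 rows of the deposited table, of which 20322 had reads. All 35 names were found once each. The fibroblasts were primary cells from tail tips of C57BL/6 mice, scratched in culture and then given the soluble MG (micrograft, a mouse skin biopsy processed to remove cell remains) together with PD0325901, an inhibitor of the kinase MEK, for 5 h. The 3 libraries analysed are labelled as replicates 1, 2 and 3 of this single condition. Every value below therefore describes MG-treated cells under MEK inhibition, and no comparison with untreated or MG-only cells was made. The paper calls these fibroblasts adult. The age of the mice is not given in the labels, nor whether each replicate came from another animal.

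Integrins are receptors made of an alpha and a beta chain that hold the cell to its matrix. On binding a ligand such as fibronectin, collagen or laminin they cluster, and talin and kindlin bind the tail of the beta chain and switch the receptor on. Vinculin, zyxin, filamin and alpha-actinin then couple the cluster to actin, while focal adhesion kinase, Src, paxillin and p130Cas pass the signal on. In fibroblasts at a wound edge this machinery carries both adhesion and migration.

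Values are normalized counts, the reads of a gene divided by 1 size factor for its library. The libraries held between 17244505 and 27037783 reads on genes, so that 3 reads, the limit behind a count of 0, were worth between 2.11 and 3.56 normalized counts. Such limits, and the Poisson intervals below, cover counting error only. A gene is called detected if no library had under 10 normalized counts, and by this measure 8 of 8 fibroblast markers and 6 of 6 markers of smooth muscle and pericytes were detected, against 1 of 6 for keratinocytes, 1 of 8 for leukocytes and 1 of 6 for endothelium. Keratinocyte markers summed to 81.6, 39.5 and 34.4 normalized counts in replicates 1 to 3, nearly all of it Krt10, with Krt15, Krt1 and Dsg3 at 0. The library farthest from the rest was replicate 2, which lay over 2-fold away from the remaining pair for 10.1% of 13154 genes.

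Of the 35 genes, 34 were detected, against 60.1% of all genes with reads. The exception was Itga2. Reads on these genes made up 1.24%, 1.75% and 1.67% of all reads in replicates 1 to 3. Levels spanned from a few reads for Itga2 to 71581 normalized counts for Flna in replicate 3.

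**Figure D1:**
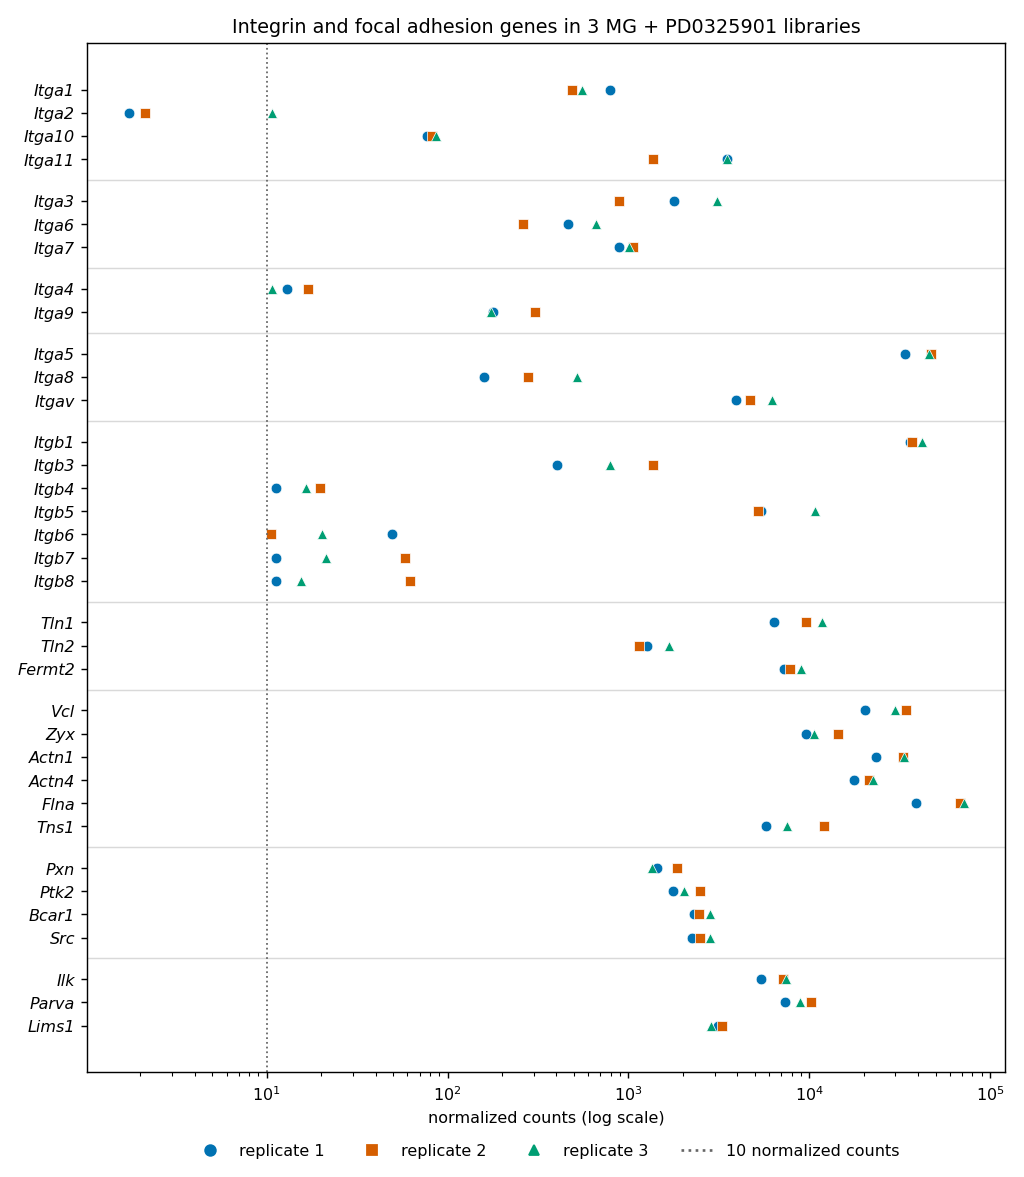
Normalized counts (log scale) of the 35 genes in each of the 3 MG + PD0325901 libraries, grouped by role, 1 symbol for each replicate, with a dotted line at 10 normalized counts. Itga5, Itgb1, Flna, Actn1, Vcl and Actn4 lie at the right, 6 integrin genes lie near the dotted line or below it in at least 1 library, and the replicates of Itga3, Itga8, Itgb3, Itgb7 and Itgb8 lie far apart.

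Among the alpha subunits, Itga5 stood alone. It encodes the alpha chain of the main fibronectin receptor (chr15:103344286-103366763, GRCm38, minus strand) and had 33943, 47112 and 45802 normalized counts in replicates 1 to 3, a mean of 42286 ± 7254 normalized counts (SD, n = 3). Its lowest library was replicate 1, with the highest 1.39-fold above it. Itga5 took 74.2%, 83.3% and 74.3% of all reads on the 12 alpha genes. Longer transcripts collect more reads, so levels of different genes are compared per kb of merged exons. On that scale Itga5 had 8572 ± 1471 per kb (SD, n = 3), and all 3 of its libraries were above all libraries of the next gene.

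That next gene was Itga11, the alpha chain of a receptor for fibrillar collagen in mesenchymal cells, with 544 ± 241 per kb (SD, n = 3). Itgav, the partner chain of the vitronectin and TGF-beta-activating receptors, followed with 461 ± 107 per kb (SD, n = 3), and Itga3, a laminin receptor chain, with 338 ± 196 per kb (SD, n = 3). The order of Itga11 and Itgav was not separated by the spread, since Itga11 was above Itgav in 2 of 3 libraries and below it in replicate 2. With the longest transcript in place of merged exons, or with no length correction, Itgav ranked 2 and Itga11 ranked 3. Itgav was above Itga3 in all 3 libraries, but the ranges of both genes overlapped. Itga7 came next with 122 ± 11.6 per kb (SD, n = 3), and then Itga6, Itga8, Itga1 and Itga9 between 51.3 and 28.4 per kb by mean, an order that changed from library to library. Itga10 was at 15.8 ± 0.893 per kb (SD, n = 3). Itga4 and Itga2 were lowest, both below 1 per kb by mean.

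The RGD-binding chains, which recognise a short motif of fibronectin and vitronectin, were all lowest in replicate 1. Itgav had 3947, 4693 and 6206 normalized counts in replicates 1 to 3, a 1.57-fold range. Itga8, best known from smooth muscle and contractile mesenchyme, had 159.8, 279.7 and 522, a 3.25-fold range with replicate 2 in the middle. The smooth muscle and pericyte markers summed to 27553, 22122 and 19402 in replicates 1 to 3, mostly through Cnn1, and their median was 549, 1352 and 324. Their part in the Itga8 value was not tested.

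Of the 3 detected collagen-binding chains, Itga11 differed most between libraries. It had 3498, 1364 and 3509.6 normalized counts, a mean of 2790.5 ± 1235 normalized counts (SD, n = 3). Replicates 1 and 3 were nearly equal, and replicate 2 was 2.56-fold below the nearer of them. Itga1, which pairs with Itgb1 to bind collagen, had 794, 489 and 551, with replicate 1 the highest. Itga10, known from cartilage, was low and steady at 77.3, 82.4 and 86.5, a 1.12-fold range. In GENCODE M21 the exons of Itga10 share 33.5% of their length with Gm42957 on the same strand, and how such reads were counted is not given in the sources used here.

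Itga2, the collagen receptor chain of epithelium and platelets, rested on 2, 3 and 9 reads in replicates 1 to 3. Its 10.7 normalized counts in replicate 3 had a 95% Poisson interval of 4.88 to 20.3, and those in replicate 1 one of 0.210 to 6.27, so the intervals overlap. Leukocyte markers summed to 146, 80.3 and 712 normalized counts and were also highest in replicate 3, mostly through Lyz2 with 123, 62.7 and 601, while the defining marker Ptprc was at 1.74, 0.705 and 1.19. Their part in the Itga2 value was not tested. In such bulk samples fewer cells of a type and less RNA per cell cannot be told apart.

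The laminin-binding chains Itga3 and Itga6 had the same order of libraries, with replicate 2 the lowest and replicate 3 the highest. Itga3 had 1791, 884 and 3109 normalized counts, and replicate 2 was 2.02-fold below the nearer library, just past the 2-fold limit. Itga6 had 464, 260.0 and 666, with replicate 2 below the nearer library by 1.78-fold. Itga7, the laminin receptor chain of muscle, did not share this order. It had 883, 1067 and 1009, a range of 1.21-fold, with replicate 2 the highest. Skeletal muscle markers other than Acta1 were at or near 0, and Acta1 had 2429, 7286 and 5586 normalized counts.

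Itga9, a receptor chain for tenascin and other matrix ligands, had 179, 304 and 173 normalized counts and was highest in replicate 2. Itga4, the fibronectin and VCAM-1 receptor chain of leukocytes and some mesenchyme, had 13, 16.9 and 10.7 on 15, 24 and 9 reads. The Poisson intervals of Itga4 overlapped between all libraries, from 4.88 to 20.3 in replicate 3 to 10.8 to 25.2 in replicate 2.

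**Figure D2:**
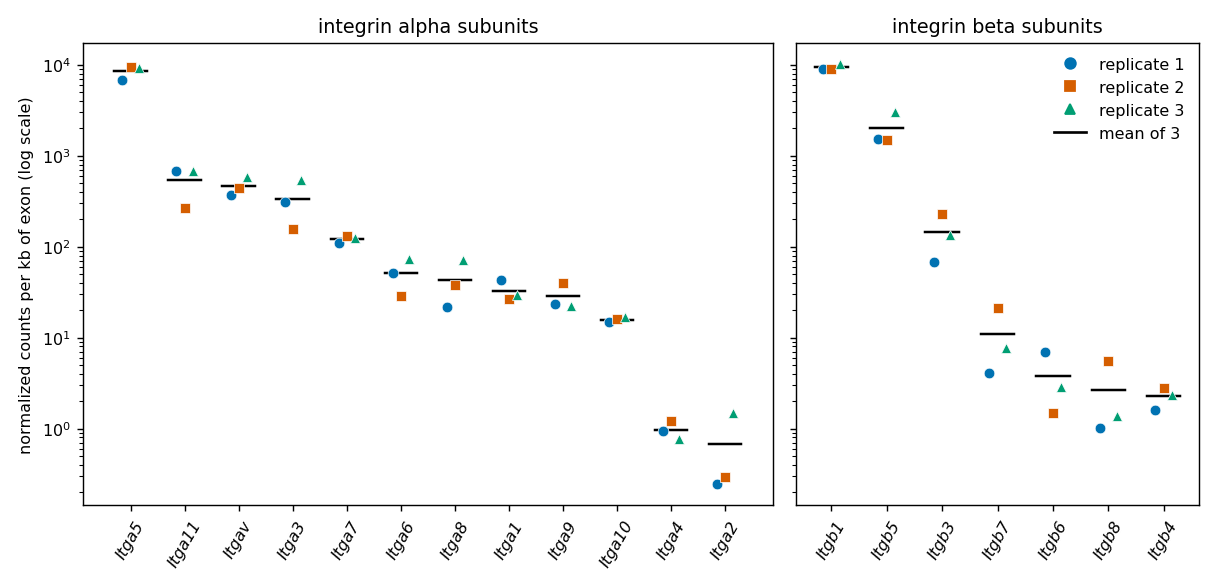
Normalized counts per kb of merged exons (log scale) of the 12 alpha subunits, left, and the 7 beta subunits, right, in order of their mean; symbols are the 3 replicates and the bar is their mean. Itga5 and Itgb1 lie near the top with little scatter, at means of 8572 and 9430.5 per kb, and Itgb7, Itgb6, Itgb8 and Itgb4 lie lowest among the beta subunits, with means of 11.0 per kb and less.

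Among the beta subunits, Itgb1, the common partner of most alpha chains, held the first rank in every library. It had 36264, 37118 and 42075 normalized counts in replicates 1 to 3, a mean of 38486 ± 3137 normalized counts (SD, n = 3), with a 1.16-fold range between libraries. Itgb1 took 86.0%, 84.6% and 78.3% of the reads on the 7 beta genes. Per kb it had 9430.5 ± 769 per kb (SD, n = 3). The level of Itga5 per kb divided by that of Itgb1 was 0.774, 1.05 and 0.901 in replicates 1 to 3, and that of all 12 alpha chains together 0.957, 1.18 and 1.11. The sum takes in all 12 chains, although Itga4, Itga6 and Itgav also pair with other beta chains.

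The 3 highest beta genes, Itgb1, Itgb5 and Itgb3, followed each other without overlap of their libraries per kb. Itgb5, which pairs with Itgav to bind vitronectin, had 5401, 5239 and 10795 normalized counts, a mean of 7145 ± 3162 normalized counts (SD, n = 3) and 2011 ± 890.0 per kb (SD, n = 3). Replicates 1 and 2 were close, and replicate 3 lay above the nearer of them by a ratio that rounds to 2.00 but falls short of 2-fold. Itgb3, which also pairs with Itgav, had 406, 1366 and 797 normalized counts and 145 ± 81.9 per kb (SD, n = 3). Its 3 libraries were spread out, with replicate 2 the highest and replicate 1 the lowest, a 3.36-fold range. Itgb5 exceeded Itgb3 per kb by 22.1-fold and 22.5-fold in replicates 1 and 3, and by 6.37-fold in replicate 2. The 4 beta chains Itgb3, Itgb5, Itgb6 and Itgb8 added up to 4.35, 3.92 and 5.50 times the level of Itgav per kb.

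The other 4 beta genes were near the limit of detection. Itgb8, which pairs with Itgav to release active TGF-beta, had 11.3, 62.0 and 15.4 normalized counts from 13, 88 and 13 reads. Replicate 2 was 3.84-fold above the nearer library, and its value was above the upper ends of the Poisson intervals of replicate 1 (6.01 to 19.3) and replicate 3 (8.20 to 26.3). Itgb7, a beta chain of lymphocytes, had 11.3, 58.5 and 21.3 from 13, 83 and 18 reads, with replicate 2 above the nearer library by 2.66-fold. The intervals of Itgb7 in the other libraries were 6.01 to 19.3 in replicate 1 and 12.6 to 33.7 in replicate 3. Leukocyte markers were not highest in replicate 2, where they summed to 80.3 normalized counts, with Ptprc at 0.705. The endothelial markers summed to 93.8, 248 and 56.9 and were highest there through Tek with 6.95, 185 and 2.37, while Pecam1 and Cdh5 had 3.52 and 0 in replicate 2. Of the smooth muscle and pericyte markers 4 of 6, Myh11, Mcam, Des and Notch3, were highest in replicate 2, Des with 212, 1208 and 77.0 and Notch3 with 40.8, 228 and 23.7 normalized counts. Cnn1 and Rgs5 were highest in replicate 1. The part of these cell type markers in the values of Itgb3, Itgb7 and Itgb8 was not tested.

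Itgb6, an epithelial chain that pairs with Itgav, had 49.5, 10.6 and 20.1 normalized counts from 57, 15 and 17 reads and was highest in replicate 1, by 2.39-fold over replicate 3. Itgb4, which pairs with Itga6 in the hemidesmosomes of keratinocytes, had 11.3, 19.7 and 16.6 from 13, 28 and 14 reads, with intervals that overlap between all libraries. The defining keratinocyte gene Krt5 was at 0.868, 0 and 0 normalized counts in replicates 1 to 3, and Krt14 at 0, 0 and 2.37. Their part in these values was not tested. Per kb, Itgb7 lay above Itgb4 and Itgb8 in every library, while the order of Itgb6, Itgb8 and Itgb4, and that of Itgb7 and Itgb6, changed from library to library.

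All 16 adhesion components were detected, with means between 1368 normalized counts for Tln2 and 59635 for Flna. The actin linkers Flna, Actn1, Vcl and Actn4 were the highest. Flna, filamin A, which crosslinks actin and binds beta tails (chrX:74223461-74249820, minus strand), had 38824, 68501 and 71581 normalized counts in replicates 1 to 3, a mean of 59635 ± 18089 normalized counts (SD, n = 3). Replicate 1 was 1.76-fold below the nearer library. Actn1, alpha-actinin 1, which bundles actin, had 23425, 33153 and 33359. Vcl, vinculin, which reinforces talin under tension, had 20249.7, 34428 and 29695. All of these were lowest in replicate 1.

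Per kb, Flna with 6344 ± 1924 per kb (SD, n = 3) and Actn1 with 5418 ± 1026 per kb (SD, n = 3) were not separated, as Actn1 was above Flna in replicate 1. In each library both were above Vcl with 3434 ± 881 per kb (SD, n = 3) and Actn4, alpha-actinin 4, with 3344 ± 409 per kb (SD, n = 3), which in turn were not separated from each other. In the annotation 25.5% of the exon length of Vcl lies opposite Ap3m1. The libraries were made with a stranded kit per the methods, but whether reads were counted by strand is not given in the sources used here. Actn4 had 17682, 21289.7 and 22504 normalized counts. Zyx, zyxin, a sensor of stretched actin fibers, had 9559, 14444 and 10608. Tns1, tensin 1, a component of the long fibrillar adhesions, had 5807, 12111 and 7562 and was the 1 component with a more than 2-fold range, at 2.09-fold, with replicate 2 the highest. The next widest component was Flna with 1.84-fold.

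The activators of integrins were led by kindlin 2 per kb. Fermt2, which encodes it, had 7220.2, 7788 and 8963 normalized counts and 1539 ± 171 per kb (SD, n = 3). Tln1, talin 1, had 6413, 9608 and 11724 and 944 ± 273 per kb (SD, n = 3), and its libraries per kb were all below those of Fermt2. Tln2, the second talin, was far lower at 1274, 1149 and 1683 normalized counts. Tln1 exceeded Tln2 per kb in every library, by 9.43-fold in replicate 1 up to 15.7-fold in replicate 2. Fermt2 had a 1.24-fold range between libraries and Tln1 a 1.83-fold range.

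The complex of ILK, PINCH and parvin, a platform between beta tails and actin, had all its genes expressed. Ilk, the pseudokinase at its center, had 5422, 7134 and 7415 normalized counts in replicates 1 to 3. Parva, which binds actin, had 7389.6, 10186 and 8878, and like Ilk it was lowest in replicate 1. Lims1, which encodes PINCH1, had 3147, 3294 and 2879 and was lowest in replicate 3. Per kb the level of Parva was 0.368, 0.386 and 0.323 of that of Ilk, and the level of Lims1 0.326, 0.259 and 0.218. These ratios rest on the count of Ilk, of whose exon length 76.7% lies opposite Taf10 in the annotation. If the reads of the stranded libraries were counted without strand, those of both genes cannot be told apart there. The ratio of Parva to Ilk also depends on the length used. Merged exons have 10157 bases for Parva and 2744 for Ilk, and the longest transcripts 5869 and 2278. Without length correction Parva was above Ilk in every library. Lims1 was among the steadiest, with a 1.14-fold range.

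The kinases and adaptors had means between 1552 normalized counts for Pxn and 2532 for Bcar1. Ptk2, focal adhesion kinase, had 1757, 2484 and 2022 normalized counts in replicates 1 to 3. Src, the kinase that joins it, had 2261, 2494 and 2819.8. The scaffold Bcar1, p130Cas, a substrate of both kinases, had 2315, 2456 and 2824. Only paxillin, Pxn, another scaffold, was not lowest in replicate 1 among these 4 genes, with 1439, 1857 and 1359.5 normalized counts. Src and Bcar1 had almost the same level, 578 ± 64.2 per kb (SD, n = 3) and 557 ± 57.8 per kb (SD, n = 3), with Src higher in all 3 libraries but with overlapping ranges. This order depends on the length used. Without length correction Bcar1 was higher in replicates 1 and 3, and the longest transcript has 3906 bases for Src but 3142 for Bcar1. Pxn with 189 ± 32.6 per kb (SD, n = 3) and Ptk2 with 177 ± 31.2 per kb (SD, n = 3) were below both in every library and were not separated from each other. Ranges between libraries were narrow, from 1.22-fold for Bcar1 to 1.41-fold for Ptk2.

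**Figure D3:**
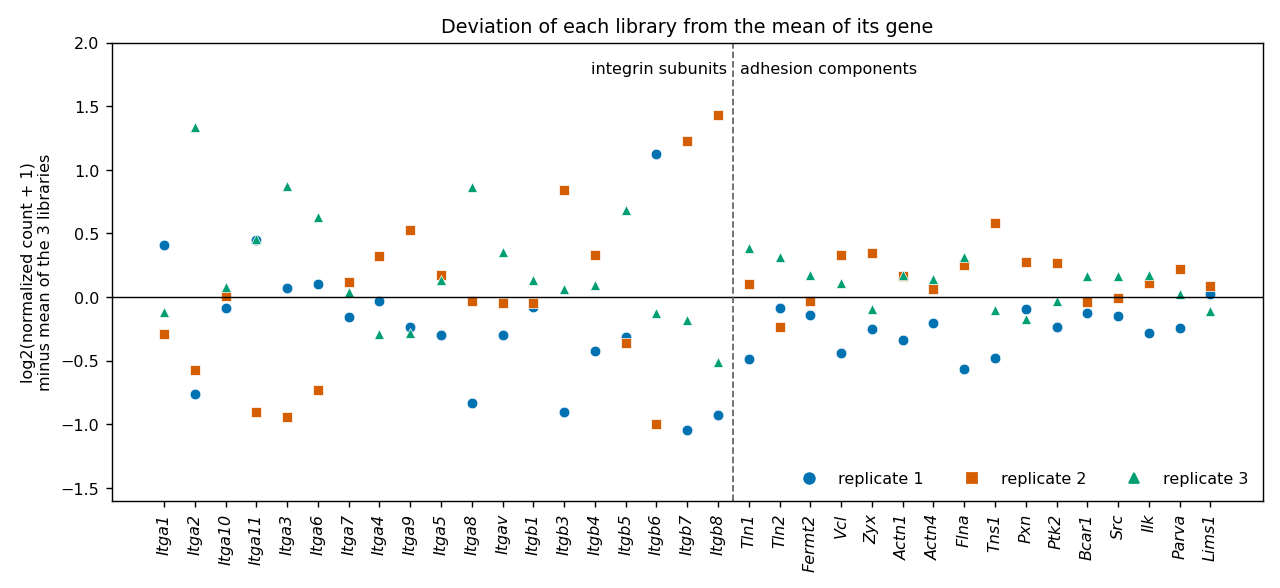
Difference of log2(normalized count + 1) in each library from the mean of the 3 libraries, for each gene, with integrin subunits left and adhesion components right of the dashed line. Replicate 1 is the lowest symbol for 13 of the 16 adhesion components, and the integrin subunits scatter more, up to 1.43 for Itgb8 in replicate 2.

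The spread between replicates was set against that of all 13154 genes with a mean of at least 10 normalized counts, taking the highest over the lowest library after adding 1. Of the 34 genes that reached this mean, 10 had a more than 2-fold range, against 26.5% of all genes. These were 9 of 18 integrin subunits, namely Itga3, Itga6, Itga8, Itga11, Itgb3, Itgb5, Itgb6, Itgb7 and Itgb8, and 1 of 16 components. Itgb5 with 2.06-fold and Tns1 were just past the limit, and Flna was the nearest below it. Without replicate 2, 2 genes, Itga8 and Itgb6, remained past the limit, without replicate 1 there were 6 and without replicate 3 there were 7. Leaving out a library can only lower a range. The share of all genes was not computed with a library left out, so these counts are not read as particular to the members. Among highly expressed genes alone, with a mean of 1000 or more, 4 of 22 members had a more than 2-fold range (18.2%), against 11.6% of 3786 genes, and these 4 were Itga3, Itga11, Itgb5 and Tns1. The median SD of log2(normalized count + 1) over the 34 detected members was 0.32, against 0.30 over all 12204 detected genes. It was 0.52 for the integrin subunits and 0.25 for the components. All components had means above 1000, and over all genes with a mean of 1000 or more the median SD was also 0.25. The integrin subunits include Itga4, Itgb4, Itgb6, Itgb7 and Itgb8, with as few as 9 reads in a library for Itga4. Counting error adds to the SD of such genes, and its share in the median of 0.52 was not tested.

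A library was called apart for a gene if its value, after adding 1, differed over 2-fold in 1 direction from each of the other libraries. Replicate 2 was apart for 4 of the 34 genes, below for Itga3 and Itga11 and above for Itgb7 and Itgb8, against 10.1% of all genes. Replicate 1 was apart for 1 gene, Itgb6, against 4.26%, and replicate 3 for 0 genes, against 3.58%. The count for replicate 2 became 2 with a minimum mean of 100, as Itgb7 and Itgb8 fall below that mean. No component was apart in any library.

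The components differed between libraries in a smaller way, and mostly in 1 order. Replicate 1 was the lowest library for 13 of 16, against 33.9% of all genes, and replicate 2 for 1 of 16, Tln2, against 37.5%. Pxn and Lims1 were lowest in replicate 3. The median difference from the mean of the 3 libraries, on the log2 scale, was -0.24, 0.14 and 0.15 over the components in replicates 1 to 3, while over all genes it was between -0.01 and 0.02. All 6 actin linkers were among the 13 genes. The count was again 13 with libraries scaled to equal totals and with TMM scaling, both tried after the values were seen. Among the 18 detected integrins, Itga5, Itga7, Itga8, Itga10 and Itgav of the alpha chains and 5 of 7 beta chains were lowest in replicate 1, but Itga1 and Itgb6 were highest there.

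Short elements that can be bound by AP-1 and serum response factor, transcription regulators known to act downstream of MEK, were looked for in the RefSeq promoters (GRCm38.p6). Windows from 250 bases before to 50 bases after a start were found for 27 of the 35 genes, in 33 windows. The AP-1 motif TGANTCA, the same on both strands, was in 4 of the 33 windows (12.1%), each of another gene, and in 7.81% of all 32851 windows. The CArG box, also the same on both strands and with no match that overlaps one of the first motif, was in 3 of the 33 windows (9.09%), each of another gene, and in 1.63% of all windows. The stretches are shown because they hold each match, in capitals, with up to 10 bases on each side, 5′ to 3′ on the strand of the gene. The first 4 lie in windows at or near the start of the gene. These are chr6:42349578-42349877 for Zyx, chr7:28962283-28962582 for Actn4, chr14:20929148-20929447 for Vcl and chr14:45530016-45530315 for Fermt2.
Zyx, AP-1: gtgcggacagTGAGTCAgttctccagc
Actn4, AP-1: ccccgccttaTGAATCAttcatgactt
Vcl, CArG box: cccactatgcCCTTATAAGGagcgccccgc
Fermt2, CArG box: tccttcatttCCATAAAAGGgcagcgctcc
Itga3, AP-1: ggctggtgccTGAATCActggcttgct
Itga9, AP-1: cagactggtcTGACTCAaggag
Itgb6, CArG box: cacctgacttCCTTATAAGGtgaatgagga

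Counted from the start, with bases before it negative, the matches began at -121 in Zyx, -169 in Actn4, -227 in Vcl and -204 in Fermt2. The matches of Itga3 (chr11:95069149-95069448), Itga9 (chr9:118711442-118711741) and Itgb6 (chr2:60673644-60673943) lie at other starts, 7603, 105002 and 48950 bases inside the gene. The stretches of Vcl and Itgb6 hold the same 10 letters. Zyx, Actn4, Vcl and Fermt2 were all lowest in replicate 1, as were 9 components with no match or no window. Itga3 and Itgb6 were lowest in replicate 2, and Itga9 was highest there. A match is a description of the sequence and does not show that a factor binds it.

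Genes around the integrins were followed in 6 further lists with 106 genes in all. Of these 106 genes, 93 were detected, against 60.1% of all genes with reads. Of the 95 with a mean of at least 10 normalized counts, 22 had a more than 2-fold range, 23.2% against 26.5% of all genes.

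**Figure D4:**
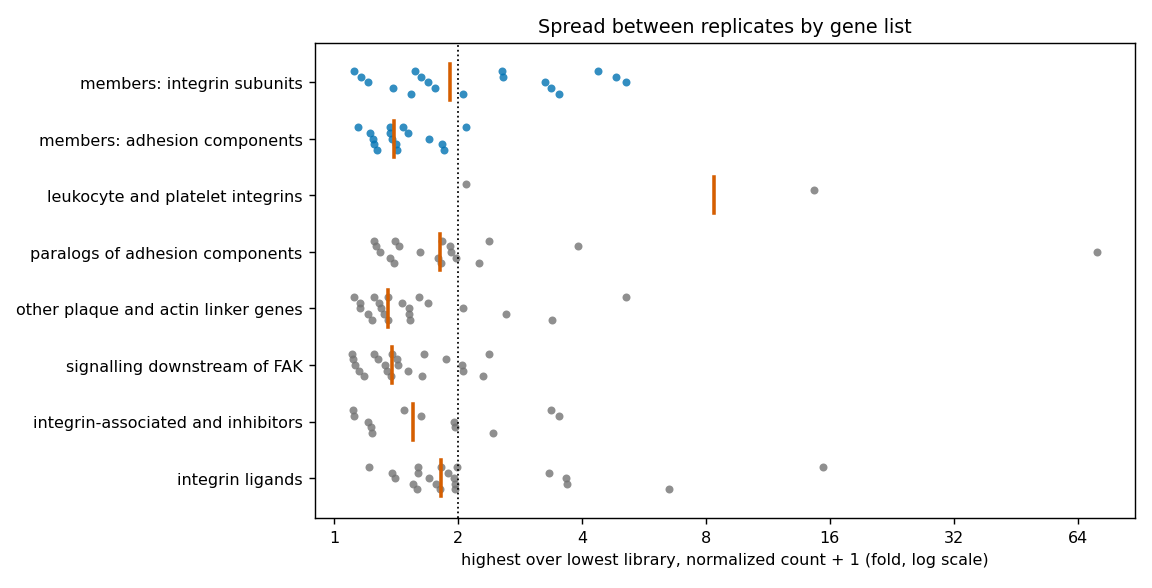
Highest over lowest library after adding 1 to the normalized counts (fold, log scale) for each gene with a mean of at least 10, by list, with the median of the list as a bar and a dotted line at 2-fold. The adhesion components have 1 gene past the line and the integrin subunits 9, while Efs lies far to the right at 71.6-fold.

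Of the leukocyte and platelet integrins, 1 of 7 was detected. This was Itga2b, the platelet fibrinogen receptor chain, with 150.2, 179.7 and 85.3 normalized counts in replicates 1 to 3. Of the platelet markers, Pf4 had 15.6, 7.05 and 28.4, and Gp1ba was at 0 in each library. Itgb2, the common beta chain of leukocytes, had 3.47, 1.41 and 34.4 and Itgam 0, 2.11 and 8.3, both highest in replicate 3. These genes are also in the leukocyte marker list, of whose other members Lyz2, Laptm5, Tyrobp and Cd52 were highest in replicate 3, and Ptprc and Cd74 in replicate 1. Itgad, a further leukocyte chain, had 0, 23.3 and 0, with reads in replicate 2 alone.

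Of the paralogs of the components, 17 of 21 were detected. Flnc, a filamin of muscle, had 10338, 18889.8 and 10685 normalized counts in replicates 1 to 3. Tns3, a tensin, had 7205, 8169 and 10116. Tns4 had 262, 589.8 and 371, with replicate 1 the lowest and replicate 2 the highest. The widest of the list was Efs, a Cas family adaptor related to Bcar1, with 53.8, 1173 and 15.4 normalized counts. Replicate 2 was 21.4-fold above the nearer library, whereas Bcar1 had a 1.22-fold range.

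All 21 other plaque and actin linker genes were detected, with Csrp1 at 30098, 29597 and 34242, Cav1 at 21586, 14222 and 16337 and Enah at 12353, 15447 and 12700.2 normalized counts. Of these 21 genes, 4 had a more than 2-fold range. Evl, which promotes actin growth, had 639, 1095 and 322 and Svil 441, 1153 and 625, both with replicate 2 the highest. Palld, palladin, had 3138, 6461 and 6296 and replicate 1 was 2.01-fold below the nearer library.

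The 21 genes of signalling downstream of focal adhesion kinase were also all detected. The GTPases Rhoa with 16846, 14318 and 14286, Cdc42 with 14105, 10639.6 and 11649 and Rac1 with 10588, 9244 and 9660.0 were the highest and each had replicate 1 as the highest library. The widest were Crkl with 364, 868 and 653, Pak1 with 1697, 738 and 1389 and Dock1 with 461, 948 and 523 normalized counts. Crkl, an adaptor that binds p130Cas, and Dock1, a Rac exchange factor, were lowest in replicate 1, as were 14 of the 21 genes, against 33.9% of all genes.

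Of the integrin-associated membrane proteins and negative regulators, 12 of 12 were detected, against 60.1% of all genes with reads, and 8 were lowest in replicate 2, against 37.5%. Sdc4, a heparan sulfate coreceptor for fibronectin, had 18785, 6933 and 24404 normalized counts, with replicate 2 the lowest by 2.71-fold. The tetraspanin Cd82 had 752, 319 and 1079 and Plaur, the urokinase receptor, 12284, 5953 and 14483, also both apart in replicate 2. Bsg had 27065, 13882 and 26273 and Lrp1, which takes up integrins and their ligands, 17408, 21453 and 28209.

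Integrin ligands were among the highest of all genes examined here. Col1a1 had 157553, 154124 and 246175 normalized counts, Fn1, fibronectin, 136151, 118311 and 232677 and Thbs1, thrombospondin 1, 137912, 149326 and 190238, all highest in replicate 3. The fibronectin receptor genes Itga5 and Itgb1 did not have the range of Fn1, with 1.39-fold and 1.16-fold against 1.97-fold. Of 24 ligand genes 21 were detected, and Vtn, vitronectin, was at 0 reads in every library. The widest were Postn, periostin, with 482, 1735 and 111, and the laminin chains Lama2 with 93.8, 617 and 160.0 and Lama5 with 701, 2574 and 1477, all with replicate 2 the highest. Of the other laminin chains listed, Lamb1 and Lamc1 were also highest in replicate 2, but Lama4 was lowest there. The laminin receptor chains Itga3 and Itga6 were lowest in that library, whereas Itga7 was highest in it. A link between these ligands and receptors was not tested. Spp1, osteopontin, a ligand of Itgav receptors, had 60123, 18077 and 19572 and was apart in replicate 1, where it was highest. Itgav, Itgb3 and Itgb8 were lowest there, but Itgb5 was lowest in replicate 2, and Itgb6 was highest in replicate 1. A lowest value in replicate 1 was common, found in 23 of the 34 integrin and adhesion genes with a mean of at least 10. A link between Spp1 and these chains was not tested.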

How the data were processed

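The 3 libraries of MG + PD0325901 were labelled as replicates of 1 condition, with no group to compare, so values per replicate, means and SDs were given and no test was made. A further 3 columns that match no label stayed out of every step. The signal values deposited by the authors are normalized counts, for which they aligned reads to mm10 with TopHat2 2.0.13, counted them with HTSeq 0.5.3p3 and divided each library by a size factor with DESeq, per the labels and the methods. The annotation and strand setting are not given in the sources used here. In each library 100% of values were whole multiples of 1 read (tolerance 0.01 reads), which gave back the reads.

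A gene was called detected at 10 normalized counts in every library. Fold ranges used a pseudocount of 1 and a mean of at least 10. The steps were tried on simulated counts with Poisson error only, with changes larger than the 2-fold limit set in genes with a mean of at least 100. Lower genes, changes near the limit and spread between replicates were not covered. Intervals are exact Poisson intervals, given under 30 reads. Lengths and overlaps came from GENCODE M21 (GRCm38), promoters from RefSeq, and TMM factors from edgeR 4.0.16 in R 4.3.3. Python 3.11.15, numpy 2.4.6, scipy 1.17.1 and pandas 2.3.3 did the rest. The genes and lists were chosen with earlier results of these data known, and 1 of the 106 further genes was found under an older symbol. Values in every library were given for genes apart in a replicate, among the 3 highest per kb of their class or under 10 normalized counts, and for others to complete a group. Of each further list the 3 highest and 3 widest detected genes were named, except where a result is not reported here, and some that were apart in a replicate. Itgb2, Itgam, Itgad and Vtn were added after their values were seen. Protein sequences were not used here.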

Additional observations from a re-analysis of the deposited data

How the results depend on the processing

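No paired analysis was possible because the labels give 1 group, and with no second condition no direction could turn. The number of genes with a more than 2-fold range was 10, and 19 at a limit of 1.5-fold. At that limit 5, 9 and 3 genes were apart in replicates 1, 2 and 3. Shares of all genes were not computed for the settings in this section, so its counts cannot be set against them. With a pseudocount of 10 replicate 1 had 0 genes apart, and with a mean of at least 100 it had 0 and replicate 2 had 2. Replicate 3 had 1 gene apart with no minimum and 1 with TMM scaling. With each replicate left out, the number with a more than 2-fold range was between 2 and 7, and the median SD of log2 between 0.21 and 0.35. Fewer libraries or a larger pseudocount can only lower a range, and a lower limit can only raise a count, so such changes in the counts follow by construction. Itgb6, the gene apart in replicate 1, and Itgb7 and Itgb8 have means below 100. The gene added in replicate 3 with no minimum was Itga2, 3.75-fold above the nearer library. With TMM scaling the gene added in replicate 3 was Itgb5, which without it was 1.999-fold above replicate 1. TMM changed the values of replicate 3 by a factor of 1.00413 and those of replicate 1 by 1.00053. The cause of the other changes was not tested. The number of detected genes was 35 at a minimum of 1 and 28 at a minimum of 100. Equal totals changed the libraries by factors of 1.01, 1.03 and 0.96 only, so mean levels could move little, and none of the 35 moved by more than 1 SD. Under that scaling 9 genes in place of 10 had a more than 2-fold range, and 3 in place of 4 were apart in replicate 2. Of the 19 ranks of integrin subunits per kb, 4 changed with the longest transcript and 7 with no length correction, and both times Itga11 and Itgav exchanged ranks. The ranks of the components were not recomputed with other lengths. Depth limited the 6 integrin genes with fewer than 30 reads in a library.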
